A study of Mus musculus with 4 samples.

Results

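The subunits of the mitochondrial respiratory chain and ATP synthase were followed through RNA sequencing of isolated mouse glomeruli, complex by complex. Members were taken from the table of expression values by symbol, as genes beginning with Ndufa, Ndufb, Ndufc, Ndufs, Ndufv, Uqcr, Cox4 to Cox8 or Atp5, together with Sdha to Sdhd, Cyc1 and the protein-coding mt- genes, at a mean of at least 1 TPM over the libraries. TPM is a length-corrected share of a library's reads, so that values of different genes in 1 library can be compared. Of 22809 listed genes, 101 carried such a symbol, and 5 of these were left out as pseudogenes by annotation or by name. They include Ndufb1-ps, named as a pseudogene but annotated as a non-coding RNA, with a mean of 44.6 TPM. The other 96 were members, 83 encoded in the nucleus and 13 on the mitochondrial genome. None was lost to the minimum, the lowest being Cox4i2 with a mean of 1.85 TPM, and all 96 were among the 18612 genes tested. Complex I had 36 nuclear and 7 mt- members, complex II 4 nuclear members, complex III 9 nuclear and 1 mt- member, complex IV 17 nuclear and 3 mt- members, and complex V 17 nuclear and 2 mt- members. Ndufa4 and Ndufa4l2 were counted with complex IV, where the NDUFA4 protein is bound. Cox7b2, Cox8b and Cox8c were not analysed here.

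The groups were 2 HDAC KO libraries, labelled as lacking Hdac1 and Hdac2 in podocytes, and 2 control libraries, labelled as wild type. Podocytes form the outer epithelial layer of the glomerular filter, and HDAC1 and HDAC2 are histone deacetylases that work in shared corepressor complexes. All mice were untreated and 3 weeks of age, each library pooled glomeruli of 2 mice, the libraries came from 2 independent experiments, and the Cre driver is not given in the sources used here. Reads recovered from the table numbered 17476365 and 20943138 in HDAC KO libraries and 15808117 and 12876939 in controls. The comparison addresses how losing both enzymes in podocytes bears on glomerular gene expression.

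Complexes I and II pass electrons from NADH and succinate to coenzyme Q, complex III passes them on to cytochrome c, complex IV reduces oxygen, and complex V, the ATP synthase, makes ATP from the proton gradient that complexes I, III and IV build. Complexes I, III, IV and V mix subunits from both genomes, whereas complex II is wholly nuclear. In the kidney the proximal tubule is the segment richest in mitochondria, and glomeruli prepared from the cortex can carry fragments of it. Nuclear subunit genes are textbook targets of the transcription factors NRF1, the ETS-family factor GABP, estrogen-related receptors and YY1.

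Promoter windows of 300 bases around the RefSeq gene start (GRCm38.p6) were found by symbol for 65 of the 83 nuclear members. They are shown for Sdhb, Uqcr11 and Atp5k, which lay lower in HDAC KO libraries and hold the NRF1 letters, and for Cox7a1, which had the second lowest fold change of all members and holds none of the letters searched. Capitals mark matches to NRF1 (GCGCATGC) and ETS (CCGGAAGT), on either strand. The windows lie at chr4:140961021-140961320 on the plus strand for Sdhb, chr10:80406772-80407071 on the minus strand for Uqcr11, chr5:108434350-108434649 on the minus strand for Atp5k and chr7:30183921-30184220 on the plus strand for Cox7a1.
Sdhb: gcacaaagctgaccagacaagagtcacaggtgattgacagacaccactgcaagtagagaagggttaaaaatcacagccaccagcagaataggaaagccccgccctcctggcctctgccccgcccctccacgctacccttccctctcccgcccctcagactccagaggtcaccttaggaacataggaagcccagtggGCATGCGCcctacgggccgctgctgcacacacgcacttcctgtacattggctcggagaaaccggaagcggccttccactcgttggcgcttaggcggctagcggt
Uqcr11: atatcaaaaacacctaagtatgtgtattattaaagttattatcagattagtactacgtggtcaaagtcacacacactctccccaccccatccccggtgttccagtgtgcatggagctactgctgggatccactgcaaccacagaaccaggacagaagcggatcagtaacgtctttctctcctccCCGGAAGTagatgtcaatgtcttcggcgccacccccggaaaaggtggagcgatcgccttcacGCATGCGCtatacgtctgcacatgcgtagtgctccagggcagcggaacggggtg
Atp5k: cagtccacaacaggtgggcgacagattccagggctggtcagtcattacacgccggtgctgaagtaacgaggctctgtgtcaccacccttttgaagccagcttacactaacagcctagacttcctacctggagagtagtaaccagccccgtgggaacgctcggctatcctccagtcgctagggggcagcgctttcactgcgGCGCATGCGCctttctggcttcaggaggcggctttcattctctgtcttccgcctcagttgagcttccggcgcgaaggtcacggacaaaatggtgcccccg
Cox7a1: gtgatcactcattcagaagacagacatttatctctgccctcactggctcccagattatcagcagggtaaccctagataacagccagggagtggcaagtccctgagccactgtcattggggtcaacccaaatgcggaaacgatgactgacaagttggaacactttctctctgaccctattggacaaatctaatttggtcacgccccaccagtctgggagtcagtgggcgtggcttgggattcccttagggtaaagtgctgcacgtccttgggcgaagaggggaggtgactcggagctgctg
The Sdhb window holds 1 NRF1 match, Uqcr11 has 1 NRF1 and 1 ETS match, and Atp5k has 2 NRF1 matches that overlap on opposite strands.

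The NRF1 letters were in the windows of 10 of the 65 members (15.4%), against 5.65% of 10447 tested protein-coding genes with a window and 2.71% of all 32851 windows of the same length. YY1 letters (AAGATGGC) were in 9 members (13.8%), among them Ndufc1 and Ndufs7, against 5.02% of the tested coding genes and 2.75% of all windows. ETS letters were in 5 members (7.69%), against 8.71% and 3.89%, and the letters of the estrogen-related receptors (TCAAGGTCA) were in 2 members, Sdhd and Atp5g3 (3.08%), against 0.325% and 0.423%. Members with NRF1 letters had a median log2 fold change, HDAC KO over control, of -0.46, and members without had -0.45. These are matches of letters and were not measured as binding sites.

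Fold changes are on the scale of log2(TPM + 1), HDAC KO over control, and were tested with limma across all 18612 genes with Benjamini-Hochberg adjustment and a threshold of 0.05. No member passed: the lowest adjusted p of limma was 0.106, for Cox7a1 and Cox6a2. Across all genes 0.0% were called higher and 0.00537% (1 gene) lower, Gm22513, which is no member. Without control 2 limma called 2080 genes and 8 members (lowest adjusted p 0.016), the lone control being assumed to vary like the HDAC KO libraries, and without control 1 it called 0 genes. At an unadjusted p under 0.05, 51 of the 83 nuclear members were lower and 0 higher in HDAC KO libraries, beside 4.46% of all genes lower and 13.4% higher. Both HDAC KO values lay below both control values for 73 nuclear members and above both for 2, beside 14.3% of all genes below and 36.7% above. The remaining 8 overlapped. The median log2 fold change of the nuclear members was -0.45 (SD among members 0.27), 78 of 83 being negative, whereas the median of all genes was 0.17 and 33.4% of them were negative. In these bulk libraries, fewer cells of a type and less RNA per cell cannot be told apart.

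**Figure D1:**
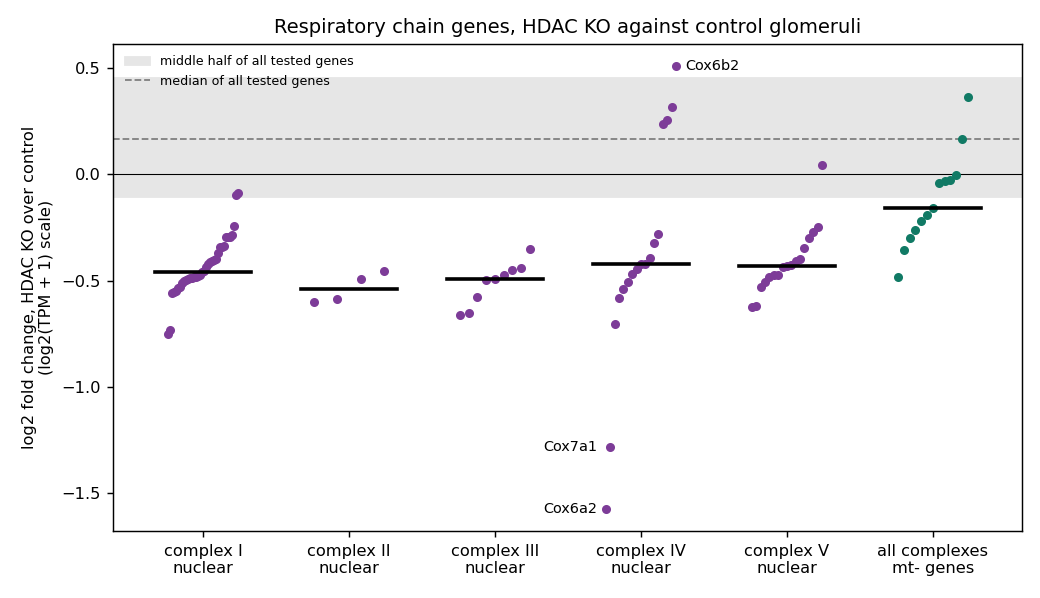
Log2 fold change, HDAC KO over control on the log2(TPM + 1) scale, of each nuclear member by complex and of the mt- genes; points are genes, black bars medians, the grey band the range between the lower and upper quartiles of all tested genes and the dashed line their median. The nuclear medians lie between -0.54 and -0.42 in the 5 complexes, with Cox6a2 and Cox7a1 lowest and Cox6b2 highest, and the median of the mt- genes is -0.16.

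The summed level of the nuclear members was 8775 and 9269 TPM in HDAC KO libraries, against 13455 and 11422 TPM in controls. The HDAC KO libraries lay close together, and the controls stood farther apart, with control 1 higher. The members made up 1.48% and 1.51% of all nuclear-encoded TPM in HDAC KO libraries and 2.25% and 2.14% in controls. In 72 of 83 nuclear members control 1 was higher than control 2, and the median log2 fold change was -0.55 against control 1 alone and -0.36 against control 2 alone.

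Several lists of markers of other cells also differed between the groups, some lower and some higher in HDAC KO libraries. Their counts are read beside the shares over all genes, 14.3% below both controls and 36.7% above both. Of 18 proximal tubule markers, 17 lay below both controls in both HDAC KO libraries and all 18 had negative fold changes (median -1.39) and a mean of at least 1 TPM. Their summed level was 4955 and 5968 TPM in HDAC KO libraries, against 43358 and 9772 TPM in controls, where Kap, an androgen-regulated proximal tubule gene, gave 31062 TPM of control 1. Without Kap, a split made after the values were seen, the sums were 3951 and 4767 TPM in HDAC KO libraries and 12295 and 8785 TPM in controls, the same order of libraries as for the nuclear respiratory chain members. The summed level of 8 macrophage and leukocyte markers was 1455 and 1583 TPM in HDAC KO libraries and 116 and 343 TPM in controls, all 8 lying above both controls. Summed podocyte markers (10 genes) were 146 and 381 TPM in HDAC KO libraries and 364 and 836 TPM in controls, and overlapped. Podocyte transcripts were thus present in all 4 libraries. The 5 parietal epithelium markers all lay above both controls, as did 36.7% of all genes. Their summed levels were 714 and 498 TPM in HDAC KO libraries and 153 and 189 TPM in controls (median log2 fold change 1.99). All 8 glomerular endothelium markers had negative fold changes (median -0.46, close to that of the nuclear members) but overlapped between the groups. Their summed levels were 267 and 539 TPM in HDAC KO libraries and 321 and 754 TPM in controls. Control 2 was thus the higher control for these markers, whereas control 1 was the higher for the nuclear members. Of 6 thick limb and distal tubule markers 4 lay below both controls and 1 above (median -0.64), and the medians were -0.03 for 4 collecting duct, 0.21 for 6 mesangial and smooth muscle and -0.99 for 4 red cell markers. The part of any of these cells in the respiratory chain result was not tested. Hdac1 had 22.9 and 22.5 TPM in HDAC KO libraries against 19.3 and 18.6 TPM in controls, and Hdac2 had 23.5 and 20.9 TPM against 20.2 and 24.1 TPM in controls, so whole-gene levels in whole glomeruli do not check the genotype labels.

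**Figure D2:**
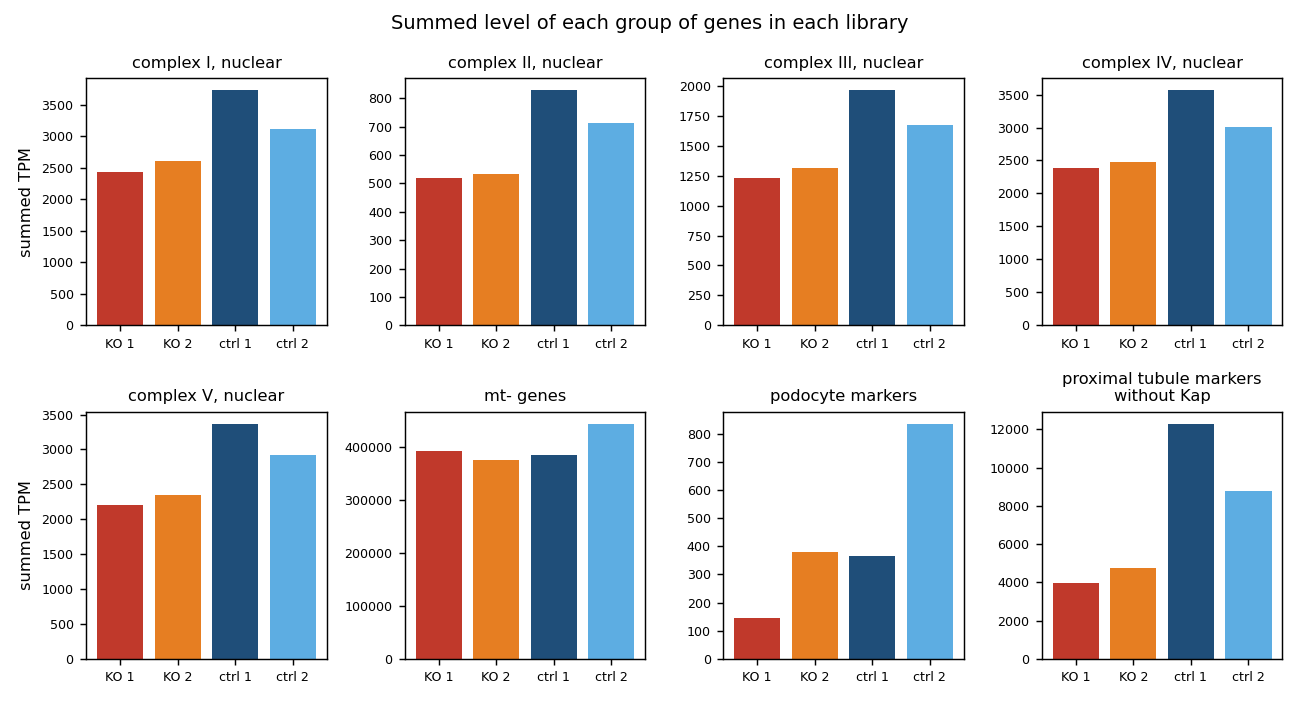
Summed TPM in each library of the nuclear members of each complex, the mt- genes, 10 podocyte markers and 17 proximal tubule markers without Kap; each bar is 1 library, with HDAC KO (KO) left of control (ctrl), and each panel has its own axis from 0. Both HDAC KO bars are below both control bars for all 5 complexes and for the proximal tubule markers, but not for the mt- genes or the podocyte markers.

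Complex I had a summed nuclear level of 2439 and 2607 TPM in HDAC KO libraries and 3727 and 3109 TPM in controls. All 36 nuclear members had negative fold changes (median -0.46), 31 did not overlap between the groups, and 21 had an unadjusted p under 0.05. Counts for this and each later complex are read beside the shares over all genes. These were 14.3% below both controls, 36.7% above both and, at an unadjusted p of limma under 0.05, 4.46% lower. The 7 nuclear core subunits, which carry the flavin and the iron-sulfur clusters, had a median of -0.47 with no overlap in any of them, and the 29 supernumerary subunits, which surround the core, had a median of -0.45, with 24 not overlapping.

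Ndufs1, the largest iron-sulfur subunit, had 31.0 and 34.1 TPM in HDAC KO libraries, against 59.4 and 50.2 TPM in controls. Its log2 fold change was -0.73 (SE 0.17, adjusted p of limma 0.132), the lowest of the core subunits. Ndufc1, a small membrane-arm subunit, had 32.9 and 33.9 TPM in HDAC KO libraries, against 58.3 and 55.5 TPM in controls, and its log2 fold change was -0.75 with an SE of 0.15 (adjusted p of limma 0.113). In Ndufc1 the libraries of a group lay close together and the groups stood well apart. Ndufv1, which binds NADH and the flavin, had 83.5 and 103 TPM in HDAC KO libraries and 142 and 108 TPM in controls. Ndufv2, its iron-sulfur partner, had 66.0 and 68.3 TPM in HDAC KO libraries and 98.6 and 90.6 TPM in controls. Neither gene overlapped, but for Ndufv1 the higher HDAC KO library came close to the lower control.

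Ndufs7, a core subunit near the coenzyme Q site, had 40.6 and 48.2 TPM in HDAC KO libraries against 69.6 and 60.9 TPM in controls. For Ndufs3 (log2 fold change -0.30) and Ndufs8 (-0.37) the groups were closer but still did not overlap. Ndufab1, the mitochondrial acyl carrier protein that also sits in complex I, had 12.97 and 11.97 TPM in HDAC KO libraries and 18.81 and 18.02 TPM in controls. Ndufs4, whose loss in mice causes a Leigh-like disease, had 37.7 and 36.4 TPM in HDAC KO libraries and 47.9 and 46.1 TPM in controls, and Ndufb8 had 49.1 and 51.4 TPM against 62.5 and 60.5 TPM in controls. Overlap was seen in 5 supernumerary subunits, among them Ndufa13, with 141 and 176 TPM in HDAC KO libraries and 267 and 165 TPM in controls. The smallest differences were in Ndufa2 (log2 fold change -0.10) and Ndufa7 (-0.09), for which an SE of 0.19 and 0.16 exceeds the difference. Ndufb1-ps, left out of the members by its name, had a log2 fold change of -0.16 (SE 0.21) with overlapping groups.

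Complex II, succinate dehydrogenase, which is also an enzyme of the citric acid cycle, had the lowest median of the 5 complexes at -0.54, with all 4 members lower in both HDAC KO libraries and all 4 at an unadjusted p under 0.05. Sdha, the flavoprotein, had 193 and 192 TPM in HDAC KO libraries, against 322 and 261 TPM in controls (log2 fold change -0.59, SE 0.18). Sdhb, the iron-sulfur subunit whose promoter is printed above, had 96.0 and 105 TPM in HDAC KO libraries, against 159 and 146 TPM in controls (log2 fold change -0.60, SE 0.16, adjusted p of limma 0.153). The membrane anchors Sdhc and Sdhd had log2 fold changes of -0.45 and -0.49. The medians of the 5 complexes, from -0.54 to -0.42, lie closer together than the SE of most single members, and no test of their order was made.

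Complex III had a median of -0.49, with all 9 nuclear members lower in both HDAC KO libraries. Uqcrfs1, the Rieske iron-sulfur protein, had 145 and 156 TPM in HDAC KO libraries, against 255 and 219 TPM in controls (log2 fold change -0.65, SE 0.17). Cyc1, cytochrome c1, had 108.1 and 116.8 TPM in HDAC KO libraries, against 181 and 140 TPM in controls. Of the core proteins, Uqcrc2 had a log2 fold change of -0.58 and Uqcrc1 of -0.47. Uqcr11, a small subunit, was the lowest by fold change, at -0.66 (SE 0.22), with 192 and 225 TPM in HDAC KO libraries and 380 and 284 TPM in controls, where the controls stood far apart. Uqcr10 was the highest, at -0.35.

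Complex IV had the widest spread of fold changes among its nuclear members (SD 0.53). Its median was -0.42, with 13 of 17 members below both controls, 2 above and 2 overlapping. The 11 members other than the paralogues, which form the common enzyme, were all lower in both HDAC KO libraries (median -0.45). Cox4i1, the main form of subunit 4, had 362 and 368 TPM in HDAC KO libraries and 477 and 413 TPM in controls, the smallest difference of the 11 (log2 fold change -0.28, SE 0.19). Ndufa4 had 116.6 and 110.6 TPM in HDAC KO libraries and 199.8 and 172.7 TPM in controls, the largest (log2 fold change -0.70, SE 0.16, adjusted p of limma 0.130). Cox5a, Cox5b, Cox6c and Cox7c lay between -0.47 and -0.39.

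The 6 paralogues had fold changes from -1.58 to 0.51. Cox7a1, the heart and skeletal muscle form of subunit 7a, at chr7:30184144-30186078, had 16.4 and 16.3 TPM in HDAC KO libraries, against 49.2 and 34.6 TPM in controls (log2 fold change -1.28, SE 0.22, adjusted p of limma 0.106). Cox6a2, the muscle form of subunit 6a, at chr7:128205435-128206387, had 2.46 and 3.16 TPM in HDAC KO libraries, against 12.1 and 8.80 TPM in controls (log2 fold change -1.58, SE 0.28, adjusted p of limma 0.106). Both genes were lower in both HDAC KO libraries by more than the controls differed. Recovered reads behind Cox6a2 were few, 12 and 18 in HDAC KO libraries and 55 and 32 in controls, and those behind Cox7a1 were 63 and 73 against 176 and 99. The muscle form made up 8.36% and 7.89% of Cox7a1 and Cox7a2 together in HDAC KO libraries, against 14.7% and 11.9% in controls. For Cox6a2 the share of Cox6a1 and Cox6a2 was 0.658% and 0.771% in HDAC KO libraries, against 2.15% and 2.00% in controls.

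Other paralogues leaned the other way, in data where the median of all genes was 0.17 and 36.7% of them lay above both controls. Cox7a2l, which joins complexes III and IV into supercomplexes, had 90.3 and 84.9 TPM in HDAC KO libraries, against 79.7 and 67.4 TPM in controls (log2 fold change 0.25, SE 0.17), above both controls. Its share of Cox7a2 and Cox7a2l was 33.4% and 30.9% in HDAC KO libraries and 21.9% and 20.8% in controls. Ndufa4l2, a hypoxia-induced relative of Ndufa4, had 3.19 and 3.39 TPM in HDAC KO libraries and 1.91 and 3.07 TPM in controls, also above both. That gap was narrow, 3.19 TPM against the 3.07 TPM of control 2, in a gene of low level (log2 fold change 0.32). Cox4i2, the hypoxia-linked form of subunit 4, had 1.24 and 2.73 TPM in HDAC KO libraries and 0.569 and 2.85 TPM in controls, and its log2 fold change of 0.23 (SE 0.54) turns to -0.02 with quantile normalization. Cox6b2, known from testis, had 6.05 and 12.1 TPM in HDAC KO libraries and 3.91 and 8.27 TPM in controls (log2 fold change 0.51, SE 0.45). In Cox4i2 and Cox6b2 the groups overlapped.

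**Figure D3:**
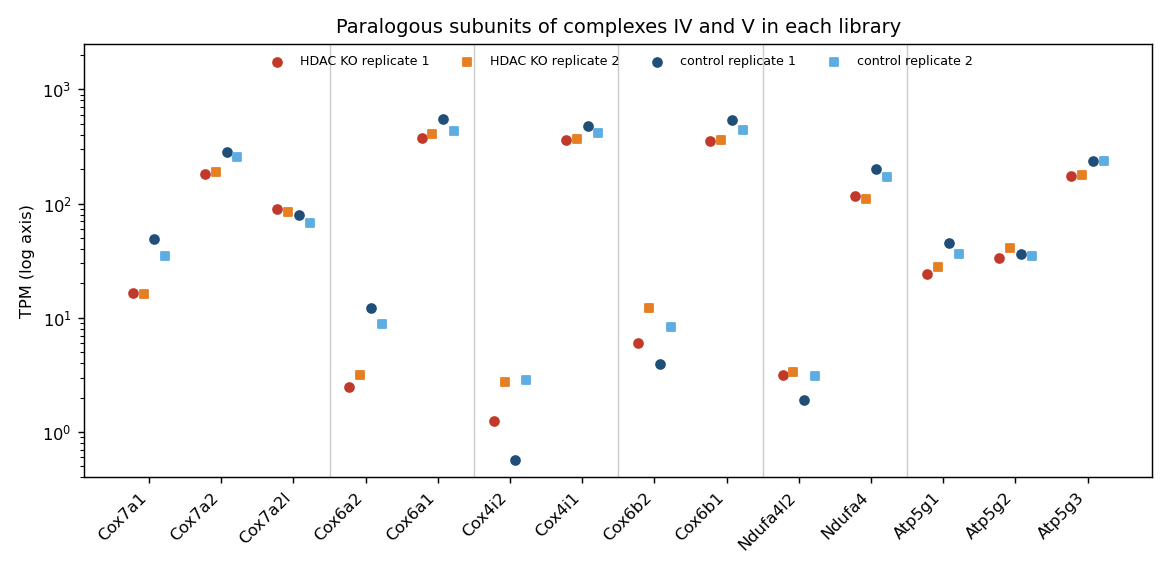
TPM on a log axis of the paralogous subunit genes of complexes IV and V in each library; the HDAC KO libraries are left of the controls within each gene. Cox7a1 and Cox6a2 are lower in both HDAC KO libraries, Cox7a2l is higher in both, and Cox4i2 and Cox6b2 overlap.

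Complex V had a summed nuclear level of 2199 and 2344 TPM in HDAC KO libraries and 3370 and 2917 TPM in controls. Its median was -0.43, and 16 of 17 nuclear members were lower in both HDAC KO libraries. Its parts had close medians: -0.47 for the 5 genes of the catalytic head and central stalk, -0.44 for the 4 of the peripheral stalk, -0.43 for the 3 of the c ring and -0.41 for the 4 accessory genes of the membrane part. Atp5s, with a mean of 8.47 TPM and a log2 fold change of -0.27, was placed in none of these parts. Atp5b, the catalytic beta subunit and the most abundant nuclear member per length, had 582 and 610 TPM in HDAC KO libraries, against 963 and 768 TPM in controls. Atp5a1, the alpha subunit, had 373 and 405 TPM in HDAC KO libraries, against 593 and 465 TPM in controls. For both, the difference between the controls gave a wide SE (0.23 and 0.21) beside log2 fold changes of -0.53 and -0.43.

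Atp5c1, the gamma subunit of the rotor, had 191 and 191 TPM in HDAC KO libraries, against 266 and 264 TPM in controls, with libraries of a group close together (log2 fold change -0.47, SE 0.16). Atp5o, the oligomycin-sensitivity subunit, had 64.9 and 61.7 TPM in HDAC KO libraries and 80.7 and 80.8 TPM in controls. Atp5f1, subunit b, had 81.8 and 86.1 TPM in HDAC KO libraries and 138 and 121 TPM in controls, with the smallest p of complex V (log2 fold change -0.62, SE 0.16, adjusted p of limma 0.147). Both stalk genes were lower in both HDAC KO libraries.

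The c ring is built from 1 mature protein that 3 genes encode. Atp5g3 had 173 and 178 TPM in HDAC KO libraries and 237 and 237 TPM in controls, and Atp5g1 had 24.4 and 27.8 TPM in HDAC KO libraries and 45.3 and 36.6 TPM in controls. Atp5g2 had 33.2 and 41.1 TPM in HDAC KO libraries and 36.5 and 35.1 TPM in controls, the only nuclear complex V gene whose groups overlapped. Its log2 fold change was 0.05 (SE 0.18) and turned negative under median-ratio, quantile and nuclear rescaling and on recovered reads. Its share of the 3 c ring genes was 14.4% and 16.7% in HDAC KO libraries, against 11.5% and 11.3% in controls, while the share of Atp5g1 was 10.6% and 11.3% against 14.2% and 11.8% in controls.

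For 36 of the 83 nuclear members another annotated gene has a transcript stretch at least 95% identical over at least 100 bases, so reads could be split between them. Some of these genes overlap the member at its own locus and are not copies elsewhere, such as Ino80dos for Ndufs1 and Pdzd9 for Uqcrc2. The median log2 fold change was -0.46 for the 36 members with either kind of match and -0.45 for the other 47. Cox7a1 has no such match, and Cox6a2 shares only 70 bases with its neighbour Itgad. Cox7a2l matches the pseudogene Gm6969 at 100% over 201 bases. Gm6969 had 50.6 and 55.6 TPM in HDAC KO libraries and 48.5 and 47.0 TPM in controls, so the level of Cox7a2l is less certain.

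The 13 mt- genes had a median log2 fold change of -0.16, 11 negative and 2 positive. For 5 both HDAC KO values lay below both controls, for 0 above, and 8 overlapped, beside 14.3% of all genes below and 36.7% above. The 5 include mt-Co2 and mt-Co3, whose low values are uncertain, as described below. None of the 13 mt- genes had an unadjusted p of limma under 0.05. Their summed level was 392414 and 374628 TPM in HDAC KO libraries and 385458 and 443815 TPM in controls, so the HDAC KO libraries were on either side of control 1 and below control 2. The order of the controls was opposite to that of the nuclear members: 12 of 13 mt- genes were lower in control 1 than in control 2. The ratio of summed mt- to summed nuclear members was 44.7 and 40.4 in HDAC KO libraries and 28.6 and 38.9 in controls, above both controls but close to control 2. The nuclear median minus the mt- median was -0.29, and -0.10 without control 1 and -0.58 without control 2.

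Levels of the mt- genes fell into separate ranges, a split seen in the values. In 7 the mean was above 1000 TPM. Mt-Co1, the catalytic core of complex IV, had 136688 and 129237 TPM in HDAC KO libraries and 130855 and 142665 TPM in controls, mt-Cytb, the cytochrome b of complex III, had 86016 and 85082 TPM against 88639 and 102974 TPM in controls, and mt-Nd1, a membrane core subunit of complex I, had 55661 and 54500 TPM against 61261 and 67323 TPM in controls. The groups of mt-Co1 overlapped, and those of mt-Cytb and mt-Nd1 did not. Mt-Nd4 and mt-Nd2, proton-pumping subunits of complex I, averaged 29008 and 26082 TPM over the 4 libraries, mt-Nd5 averaged 38288 TPM and mt-Nd6 20269 TPM. Mt-Nd6 is the one protein gene on the other strand, and with the strand setting not given, the strand of its reads cannot be told. It had 23891 and 18476 TPM in HDAC KO libraries and 14529 and 24181 TPM in controls. Its log2 fold change of 0.16 became -0.05 with median-ratio scaling. At such levels the variance trend of limma rests on few genes: the SE of mt-Co1 was 2.58 with the trend and 0.20 without it, and the adjusted p of limma without it was 0.436 or higher for all 13.

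The other 6 mt- genes averaged between 10.7 and 82.6 TPM, although the mitochondrial genome is transcribed as long joint precursors. Mt-Co2 had 77.0 and 72.9 TPM in HDAC KO libraries and 92.9 and 87.5 TPM in controls, and mt-Co3 had 41.9 and 31.1 TPM against 45.2 and 57.3 TPM in controls. These were the 2 low genes whose groups did not overlap. Mt-Atp6 had 34.9 and 19.3 TPM in HDAC KO libraries and 25.5 and 44.2 TPM in controls, and mt-Nd4l had 26.3 and 21.3 TPM against 20.1 and 29.0 TPM in controls. Mt-Atp8 had 23.3 and 7.03 TPM in HDAC KO libraries and 8.79 and 11.002 TPM in controls, from 34 and 12 reads against 12 and 12, and mt-Nd3 had 13.6 and 7.56 TPM against 7.73 and 14.0 TPM in controls. In the last 4 genes the groups overlapped.

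For mt-Co2, mt-Co3, mt-Atp6, mt-Nd3 and mt-Nd4l, annotated pseudogenes on chromosome 1 (GRCm38, in the stretch chr1:24612407-24615565) match at 99.7% to 100% over nearly the whole gene. Stretches are shown for a low and a high gene, as the first 60 aligned bases of each with its closest annotated copy, and capitals mark bases that differ.
mt-Atp6: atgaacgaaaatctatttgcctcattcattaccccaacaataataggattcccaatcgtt
Gm10925: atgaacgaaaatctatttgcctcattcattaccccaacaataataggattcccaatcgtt
mt-Cytb: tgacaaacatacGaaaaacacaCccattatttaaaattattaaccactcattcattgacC
Gm11410: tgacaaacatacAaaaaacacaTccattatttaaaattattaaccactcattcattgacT
Over the whole match, mt-Atp6 and Gm10925 had 0 differences in 678 bases, and mt-Cytb and Gm11410, on chromosome 4, had 81 in 1142. A read inside the first match cannot be assigned to either place by its sequence. The copies had values of their own: Gm10925 had 56.2 and 34.4 TPM in HDAC KO libraries and 35.7 and 54.3 TPM in controls, and Gm28438, the copy of mt-Nd3, had 425 and 338 TPM against 425 and 551 TPM in controls. Of the high genes, mt-Nd4 matches a copy at 100% over 63.6% of its length and mt-Co1 at 99.8% over 31.3%, and the best copies of the other 5 were 76.6% to 96.7% identical. Mt-Atp8, which overlaps mt-Atp6 on the mitochondrial genome (7766 to 7969 and 7927 to 8607), had no annotated copy closer than 81.4%. The part of the copies in the low levels was not tested, and values of these 6 genes are uncertain.

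**Figure D4:**
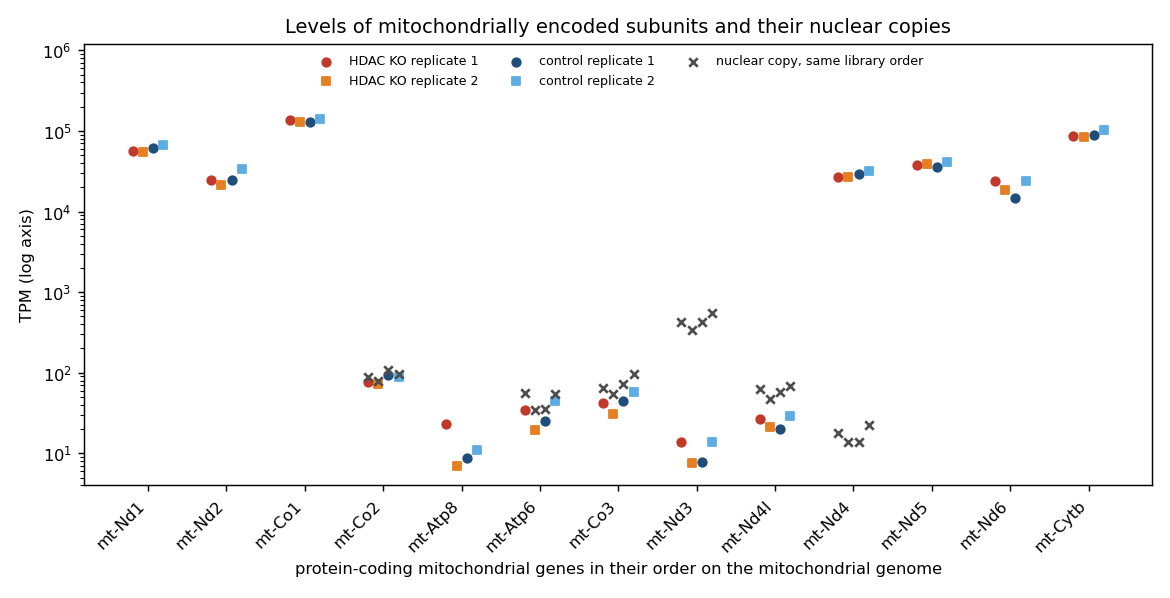
TPM on a log axis of the 13 protein-coding mitochondrial genes in genome order, with HDAC KO libraries left of controls; crosses give, in the same order of libraries, the annotated nuclear copy for the genes whose best copy is at least 99% identical. The 7 high genes lie above 1000 TPM in every library and the 6 low ones far below, and all of those 6 other than mt-Atp8 have such a copy.

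Genes that work beside the subunits were described by lists, whose counts are read beside the shares over all genes: 14.3% below both controls, 36.7% above both, and at an unadjusted p under 0.05 4.46% lower and 13.4% higher. Of 17 citric acid cycle and pyruvate dehydrogenase genes, 16 lay below both controls in both HDAC KO libraries and 6 had an unadjusted p under 0.05 (median -0.39). Dld, the shared E3 subunit of the dehydrogenase complexes, had 59.4 and 57.5 TPM in HDAC KO libraries against 91.9 and 89.4 TPM in controls, and Pdhb, a pyruvate dehydrogenase subunit, had 41.0 and 41.7 TPM against 64.2 and 60.6 TPM in controls. Of 17 genes of membrane carriers and import, 13 lay below both controls (median -0.26), and 1 was lower at an unadjusted p under 0.05, near the 4.46% of all genes. Hspd1, the matrix chaperonin, had 149 and 170 TPM in HDAC KO libraries against 318 and 234 TPM in controls, and Slc25a5, an ADP/ATP carrier, had 420 and 386 TPM against 586 and 537 TPM in controls.

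Of 14 genes for the mobile electron carriers, 8 lay below both controls, 2 lay above, and 2 were lower at an unadjusted p under 0.05 (median -0.18), beside 14.3%, 36.7% and 4.46% of all genes. Cycs, cytochrome c, had 43.9 and 43.6 TPM in HDAC KO libraries against 91.5 and 64.0 TPM in controls (log2 fold change -0.79, SE 0.21), and Coq9, of coenzyme Q synthesis, had 32.97 and 41.45 TPM against 59.0 and 52.96 TPM in controls. Of 45 tested assembly factors, 21 lay below both controls, 2 lay above, and 5 were lower at an unadjusted p under 0.05, beside 14.3%, 36.7% and 4.46% of all genes, with a median of -0.14, nearer to zero than that of the subunits they assemble. Ndufaf4, of complex I assembly, had 9.88 and 8.43 TPM in HDAC KO libraries against 16.6 and 15.96 TPM in controls, and Fmc1, of ATP synthase assembly, had 35.9 and 37.0 TPM against 52.3 and 55.6 TPM in controls.

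Of 20 regulators of mitochondrial transcription and biogenesis, 7 lay below both controls and 2 above, beside 14.3% and 36.7% of all genes, with a median of -0.12. Lrpprc, which stabilises mitochondrial mRNAs, had 26.5 and 28.5 TPM in HDAC KO libraries against 39.8 and 34.4 TPM in controls. Pprc1, a coactivator related to PGC-1alpha, had 15.7 and 19.5 TPM in HDAC KO libraries against 9.54 and 12.6 TPM in controls, the one gene of the list with an unadjusted p under 0.05, a smaller share than the 13.4% of all genes that were higher. No gene of these 5 lists passed limma's adjusted threshold, and differences between the lists and the subunits were not tested.

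**Figure D5:**
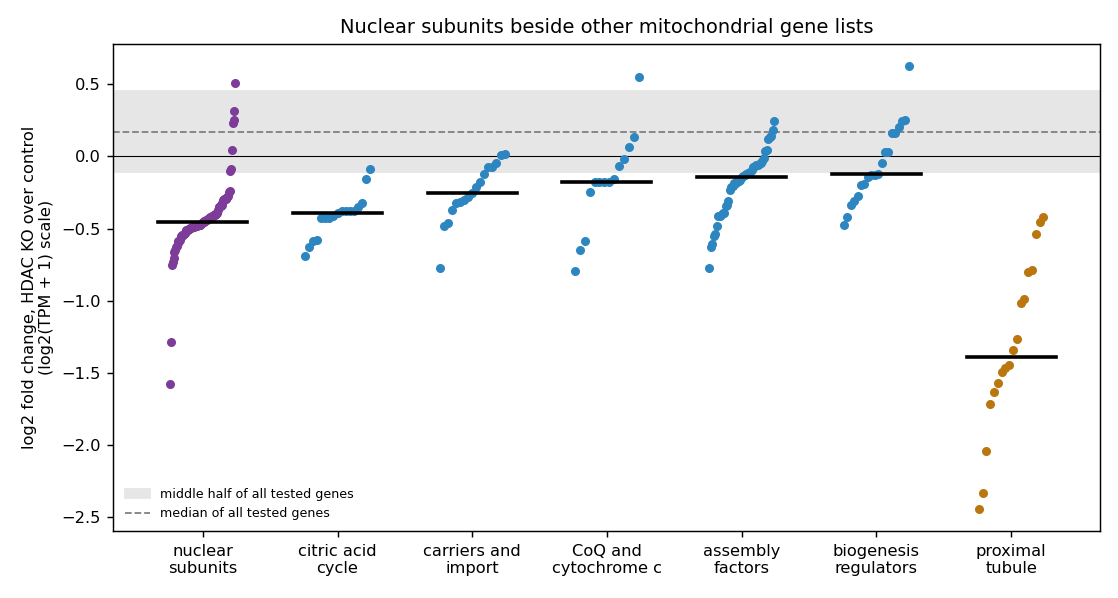
Log2 fold change, HDAC KO over control on the log2(TPM + 1) scale, of the nuclear subunits, of 5 lists of other mitochondrial genes and of 18 proximal tubule markers; points are genes, black bars medians, the grey band the range between the lower and upper quartiles of all tested genes and the dashed line their median. The medians run from -0.45 for the subunits through -0.39 for the citric acid cycle to -0.12 for the biogenesis regulators, and the proximal tubule markers lie at -1.39.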

How the data were processed

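Poly(A) RNA of glomeruli was sequenced in 4 libraries, and expression was deposited by the authors in TPM units, 1 column a library summing to 1000000, with 22809 Ensembl IDs listed. Software named, per the submitters' processing notes, was STAR 2.7.9, featureCounts 2.0.0, fastp 0.20 and DESeq2 1.30.1, with the build GRCm38.p6 and no role or order. Not given in the sources used here were the annotation, the strand setting and the filter on listed genes. Each library pooled 2 mice, so the spread between replicates is that between pools.

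Symbols came from GENCODE M21 by ID for 22176 genes and by ID without its version for 586. TPM multiplied by M21 union exon length gave whole reads for 22176 genes (97.2%, relative tolerance 1e-06). In all these were 17476365 and 20943138 reads in HDAC KO libraries and 15808117 and 12876939 in controls. Between 12 and 55 reads lie behind the values printed for Cox6a2, which limits their precision. Cox4i2 and Ndufa4l2 had lower mean levels, 1.85 and 2.89 TPM, and the same limit applies to them. Mitochondrial genes held 38.7% to 46.5% of TPM, so a change in them moves the TPM of all others.

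Genes were tested with lmFit and eBayes (with trend) of limma 3.58.1, under R 4.3.3, on log2(TPM + 1) for 18612 genes with a mean of at least 1 TPM (4197 left out), HDAC KO minus control, no block, with 2 residual degrees of freedom, checked on simulated data. The scale understates changes of low genes. Medians over members are descriptions, not tests. Members, gene lists and the rule for named genes (a fixed list by role plus, per complex, the smallest p, the extremes of fold change and of level) were chosen with earlier results of these data known. Alternatives were 14 settings of pseudocount, filter, scaling, trend, block, left-out libraries and limma's voom on recovered reads. Copies were sought with blastn 2.17.0 in M21 transcripts. Python 3.11.15, numpy 2.4.6, pandas 2.3.3, scipy 1.17.1 and matplotlib 3.10.9 were used. Promoter sequences are from RefSeq (GRCm38.p6), other sequences from M21 transcripts. Some genes that the rule names are left out of the text and not reported here.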

Additional observations from a re-analysis of the deposited data

How the results depend on the processing

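Of the nuclear members, 77 to 80 of 83 (78 of 81 at a mean of at least 5 TPM) had negative fold changes under all 14 alternatives, and 0 members passed the adjusted threshold except without control replicate 2. That library decides the call: without it limma called 2080 genes and 8 members (Ndufc1, Ndufs1, Sdha, Uqcrfs1, Cox6a2, Cox7a1, Ndufa4 and Atp5f1; lowest adjusted p of limma 0.016), the lone control being assumed to vary like the HDAC KO libraries. The 1 gene called became 0 with quantile normalization, without the trend, with voom on recovered reads (970 lower and 2546 higher at an unadjusted p under 0.05) and without control replicate 1. The cause was not tested.

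Median-ratio scaling moved the median of all genes by -0.18 and nuclear rescaling by -0.07. The nuclear median was -0.67 with median-ratio scaling and -0.55 with nuclear rescaling, and -0.55 to -0.36 with a library left out. With median-ratio scaling complexes I to V had -0.66, -0.76, -0.71, -0.64 and -0.65. With nuclear rescaling they had -0.56, -0.63, -0.58, -0.51 and -0.52. Complex IV had -0.39 with quantile normalization, and complexes III and IV had -0.55 and -0.48 with voom. With a library left out, complex I ran from -0.57 to -0.34, complex II ran from -0.62 to -0.42, complex III ran from -0.67 to -0.40, complex IV ran from -0.50 to -0.36 and complex V ran from -0.47 to -0.37. The mt- median ran from -0.27 to 0.022, its sign turning without control replicate 2.

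Some single genes changed sign. Atp5g2 was -0.17 with median-ratio scaling, -0.077 with quantile normalization, -0.044 with nuclear rescaling and -0.0036 with voom, and Hdac2 was -0.20, -0.17, -0.083 and -0.044 under the same settings. Mt-Nd6 was -0.053 with median-ratio scaling and Cox4i2 -0.024 with quantile normalization. With a library left out, log2 fold changes ran from -0.25 to 0.055 for Ndufa2, -0.41 to 0.88 for Cox4i2, -0.20 to 0.53 for mt-Nd6, -0.12 to 0.13 for Hdac2, -0.42 to 0.36 for mt-Nd3, -0.28 to 0.23 for mt-Nd4l, -0.098 to 0.093 for mt-Nd5, -0.10 to 0.022 for mt-Co1, -0.77 to 0.052 for mt-Atp6, -0.43 to 1.16 for mt-Atp8 and -0.11 to 0.20 for Atp5g2.

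The replicate numbers were shared by the groups, and libraries of the same number deviated together with r = 0.14 over 18612 genes, but 2 pairs do not show that they are paired. With the replicate number as a block, 1 gene and 0 members were called, and the lowest adjusted p of limma for a member was 0.065.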
